A study of Mus musculus with 19 samples.

Results

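DNA methylation was examined at 8 genes grouped here as mouse liver endothelial and immune cell genes: Eng, Stab1, Stab2, Vwf, Gata4, Csf1r, Itgam and Cd79b. The data used here do not show which liver cells express these genes. The members are the CpG sites listed in the authors' 3 comparison tables that lie inside these genes or within 2 kb of either end. There were 17 such entries of 12334 in all, at 13 distinct sites. The genes were selected on the listed methylation differences themselves, so the counts and differences below describe the choice and carry no test beyond the authors' own p- and q-values.

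Methylation was read by reduced-representation bisulfite sequencing, in which DNA is cut with restriction enzymes (here MspI and TaqαI) and unmethylated cytosines are converted before sequencing. The 19 mice were 10 months old: 6 MAT1A KO mice given placebo, 5 MAT1A KO mice given S-adenosylmethionine (SAMe), and 8 MAT1A WT mice with no treatment. Placebo and SAMe were given for 8 weeks, as the series title states. No WT mice received placebo or SAMe, so the comparison of placebo-treated KO with WT liver changes the genotype and the dosing procedure together. That of SAMe-treated KO with WT liver changes the genotype, the dosing procedure and SAMe itself together. The sources used here do not give sex, strain or the design of the KO allele. The samples were whole liver. In such samples, a different share of endothelial or immune cells and different methylation within any cell type, hepatocytes included, cannot be told apart.

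Hepatocytes are the main cells of the liver, and they make SAMe from methionine with the enzyme encoded by Mat1a. SAMe is the methyl donor for DNA methyltransferases. The sinusoids between hepatocytes are lined by a specialised, perforated endothelium that clears waste molecules from blood through scavenger receptors. Resident macrophages, called Kupffer cells, sit in the sinusoids, and monocytes and lymphocytes pass through them. Methylation of CpG sites in a gene differs between cell types, and its relation to transcription depends on where in the gene the site lies.

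Each table lists sites that passed the authors' thresholds, with 1 difference in percentage points per site. All listed absolute differences were above 20 and all q-values were under 0.05. Levels, read coverage and values for single animals are not in these tables, so depth is unknown and no SD can be given. The tables do not name the group that was subtracted. Differences are read here as KO minus WT and as KO SAMe minus KO placebo; if the authors used the opposite order, all directions below turn round together. A site missing from a table either did not pass or was not covered.

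Methylation was lower in placebo-treated KO liver than in WT liver at all 9 listed sites of these genes, which lay in 6 of the 8 genes. In the same comparison 12.5% of 21887 coding genes had a listed site, and the share with a lower site was also 12.5%. In SAMe-treated KO liver against WT liver, all 6 listed sites were lower and lay in 4 of the 8 genes, beside 10.8% of coding genes with any listed site and 10.7% with a lower one. Between the KO groups, 1 site in Gata4 was lower and 1 site in Cd79b was higher with SAMe, so 2 of the 8 genes had a site, beside 0.658% of coding genes. A lower site was listed in 0.274% of coding genes there and a higher one in 0.384%. The rule used these tables, so nothing is read from those shares. Lower sites were the rule in both WT tables, with 6678 of 6721 listed sites lower in placebo-treated KO liver and 5330 of 5383 in SAMe-treated KO liver. The median over the sites of the 8 genes was −25.0 percentage points with placebo, beside −25.9 over all listed sites. With SAMe these medians were −26.9 and −26.6.

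**Figure D1:**
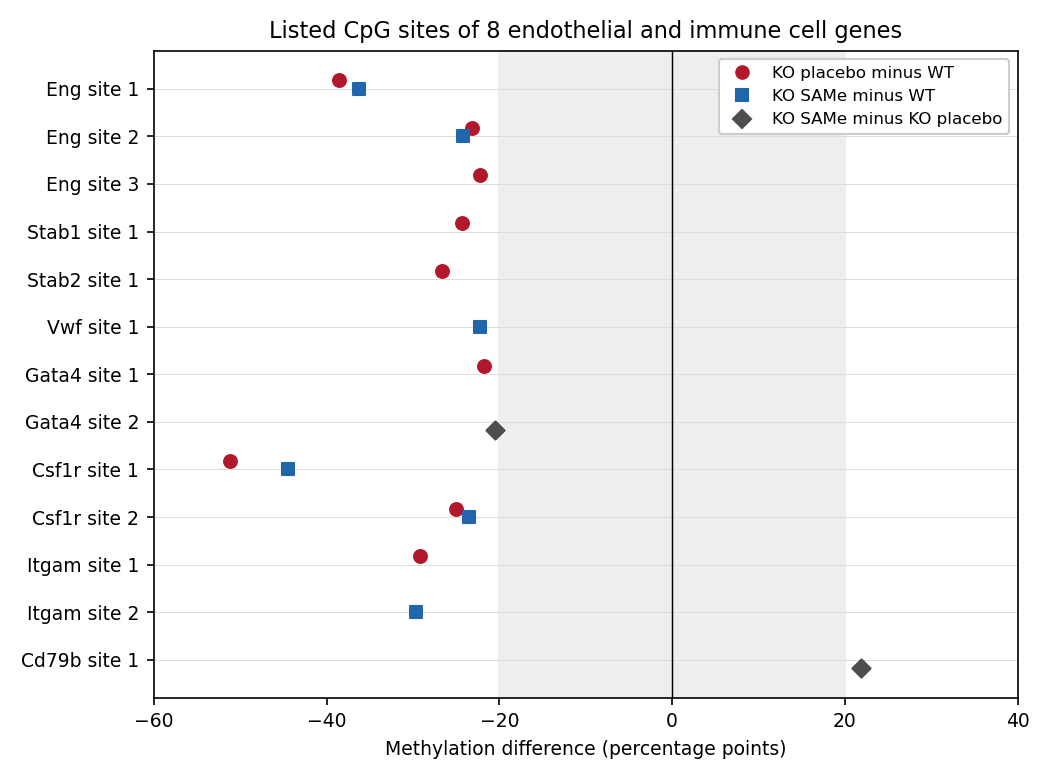
The methylation difference in percentage points (x axis) is drawn for each of the 13 listed CpG sites (y axis, numbered along each gene), with a circle, square or diamond for each comparison. The shaded band from −20 to 20 marks differences that the tables do not list. Csf1r site 1 lies farthest from 0, at −51.2 in placebo-treated KO liver, and Cd79b alone lies above 0.

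Of the 13 sites, 11 lay inside a gene and 2 lay outside, both of them before the start of Itgam. Start sites were known for 4 of the 8 genes, Eng, Stab1, Stab2 and Itgam, from the RefSeq promoter table (GRCm38.p6, which shares coordinates with mm10). Entries were matched by symbol. The windows run from 250 bases before to 50 bases after the start. They are shown because none of the 4 held a listed site, so that the listed differences of these genes lie outside the sequence around the start. Each is given 5′ to 3′ on the gene's own strand, with every CpG in capitals. The intervals are chr2:32646345-32646644 (plus strand) for Eng, chr14:31168592-31168891 (minus strand) for Stab1, chr10:87007893-87008192 (minus strand) for Stab2 and chr7:128062390-128062689 (plus strand) for Itgam.
Eng: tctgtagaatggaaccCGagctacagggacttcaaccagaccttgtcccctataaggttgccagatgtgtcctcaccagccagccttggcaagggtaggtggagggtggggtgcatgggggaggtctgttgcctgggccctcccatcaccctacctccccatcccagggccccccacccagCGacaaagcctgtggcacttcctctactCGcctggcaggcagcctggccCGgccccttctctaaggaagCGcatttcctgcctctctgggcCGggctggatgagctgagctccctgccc
Stab1: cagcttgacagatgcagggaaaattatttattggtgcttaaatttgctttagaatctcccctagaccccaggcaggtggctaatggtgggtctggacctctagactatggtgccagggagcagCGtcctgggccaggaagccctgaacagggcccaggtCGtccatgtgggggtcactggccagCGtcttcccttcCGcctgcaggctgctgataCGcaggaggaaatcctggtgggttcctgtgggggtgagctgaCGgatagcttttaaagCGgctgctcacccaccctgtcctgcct
Stab2: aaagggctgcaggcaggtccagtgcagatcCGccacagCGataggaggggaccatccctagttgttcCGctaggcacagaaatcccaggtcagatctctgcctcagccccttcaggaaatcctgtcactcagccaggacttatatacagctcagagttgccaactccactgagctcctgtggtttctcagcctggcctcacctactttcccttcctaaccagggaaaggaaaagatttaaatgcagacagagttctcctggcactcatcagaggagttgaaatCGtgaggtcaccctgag
Itgam: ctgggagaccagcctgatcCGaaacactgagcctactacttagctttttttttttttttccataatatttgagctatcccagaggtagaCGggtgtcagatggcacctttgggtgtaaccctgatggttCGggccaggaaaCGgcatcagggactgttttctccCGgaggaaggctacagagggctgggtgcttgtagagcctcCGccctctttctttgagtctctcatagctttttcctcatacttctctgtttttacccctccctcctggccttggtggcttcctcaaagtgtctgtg

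The Eng window held 6 CpG dinucleotides, the Stab1 window 7, the Stab2 window 4 and the Itgam window 6, beside a median of 13 over 21263 windows of coding genes and of 7 over all 32851 windows. The recognition sequence of MspI is CCGG and that of TaqαI is TCGA; both read the same on either strand. CCGG occurred at 2 places in the Eng window and at 1 in the Itgam window. Neither CCGG nor TCGA occurred in the Stab1 and Stab2 windows. Of the windows of coding genes, 62.2% held CCGG and 23.9% held TCGA, and of all windows 52.8% and 22.0%. A match describes these letters only and does not show that a fragment was read. Few listed sites lay in any such window, 1.22% in placebo-treated KO against WT liver and 1.02% in SAMe-treated KO against WT liver. At all 82 and 55 of these sites the reference held a CpG at the listed position and strand.

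Eng encodes endoglin, a co-receptor of endothelial cells for bone morphogenetic proteins and TGF-beta. Its 3 listed sites lay within 170 bp of each other inside the gene, 879 to 1049 bp before its far end (chromosome 2, 32646595 to 32682669, plus strand). At position 32681620 the difference was −38.6 percentage points in placebo-treated KO liver against WT liver (q listed as 0) in the authors' deposited table. At the same position it was −36.3 in SAMe-treated KO liver against WT liver (q = 7e-15) in the authors' deposited table. Both differences were larger in size than most in their tables, with 744 larger ones among the placebo sites and 923 among the SAMe sites. The neighbouring position 32681645, 25 bp away, stood at −23.2 with placebo (q = 3.22e-07) and −24.2 with SAMe (q = 7.11e-06), each against WT, in the authors' deposited table. Position 32681790 was listed with placebo alone, at −22.2 against WT (q = 1.7e-06) in the authors' deposited table. The 3 sites also lie within 2 kb of Fpgs, which encodes folylpolyglutamate synthase and overlaps the far end of Eng, so the rule assigns them to both genes.

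Stab1 and Stab2 encode stabilin-1 and stabilin-2, the scavenger receptors of the sinusoidal endothelium, and stabilin-2 takes up hyaluronan. Each had 1 listed site, in placebo-treated KO liver against WT liver. The Stab1 site stood at −24.3 percentage points (q listed as 0) at chromosome 14 position 31161638, 7003 bp after the gene's start, in the authors' deposited table. The Stab1 site also lies inside or within 2 kb of Gm52148, annotated as a long non-coding RNA gene. The Stab2 site stood at −26.6 (q = 5.58e-15) at chromosome 10 position 86846808, 161134 bp after the start of this 166.8 kb gene, in the authors' deposited table. The Stab2 site was thus near the far end of its gene, 5614 bp from it, and the Stab1 site nearer to the start than to the far end of its 29.6 kb gene. Both stood alone, since the nearest other listed site of that table was 60663 bp from the Stab2 site and 99874 bp from the Stab1 site. Neither gene had a listed site in SAMe-treated KO liver against WT liver, which does not show that methylation there was the same as in WT liver. Stab1 lies 9.94 Mb from Mat1a on the same chromosome. At genes on this chromosome, DNA inherited with the KO allele and the loss of the enzyme cannot be told apart.

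Vwf encodes von Willebrand factor, the blood glycoprotein that tethers platelets and is made mainly by the endothelium of larger vessels. Its 1 listed site, chromosome 6 position 125576719, lay inside the gene 23771 bp from its lower-coordinate end. The difference was −22.3 percentage points in SAMe-treated KO liver against WT liver (q = 4.86e-06) in the authors' deposited table. It is the only one of the 8 genes listed against WT in the SAMe table and not in the placebo table. The difference lies close to the threshold of 20, and 4267 of the 5383 listed sites had a larger one. No other listed site of that table lay within 100 kb of it.

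Gata4 encodes a zinc finger transcription factor that in mice directs the differentiation of sinusoidal endothelium. It had 2 listed sites inside the gene, 14412 bp apart, in different tables. Position 63240935 on chromosome 14 stood at −21.8 percentage points in placebo-treated KO liver against WT liver (q = 6.9e-10) in the authors' deposited table. Position 63255347 stood at −20.5 in SAMe-treated against placebo-treated KO liver (q = 0.0453) in the authors' deposited table. Both sites were lower in the group named first, and both lay close to the threshold of 20. The q-value of the second site was also close to the limit of listing, since the highest in that table was 0.0495. Neither site was listed in SAMe-treated KO liver against WT liver. Gata4 lies 22.1 Mb from Mat1a.

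Csf1r encodes the receptor for macrophage colony-stimulating factor and interleukin-34, on which Kupffer cells and other macrophages depend. It had 2 listed sites 8 bp apart inside the gene, 4470 and 4478 bp from its lower-coordinate end (chromosome 18, 61105572 to 61131139). Position 61110042 stood at −51.2 percentage points in placebo-treated KO liver against WT liver (q listed as 0) in the authors' deposited table. It stood at −44.4 in SAMe-treated KO liver against WT liver (q listed as 0) in the authors' deposited table. These were the largest differences from WT among the sites of the 8 genes, in each table. Of all listed sites, 133 had a larger difference in the placebo table and 339 in the SAMe table. Position 61110050 stood at −25.0 with placebo (q = 3.16e-07) and −23.5 with SAMe (q = 2.42e-06), each against WT, in the authors' deposited table. The differences at these neighbouring cytosines of the same strand were thus unequal in both tables. The nearest other listed site in either WT comparison lay 10.6 kb outside Csf1r, beyond the 2 kb of the rule.

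Itgam encodes CD11b, the alpha chain of an integrin of monocytes, neutrophils and many macrophages. Its listed sites were the only ones of the 8 genes on the start side of a gene and outside it. Position 128061747 on chromosome 7, 893 bp before the start, stood at −29.2 percentage points in placebo-treated KO liver against WT liver (q = 9.49e-11) in the authors' deposited table. Position 128061773, 26 bp further on and 867 bp before the start, stood at −29.6 in SAMe-treated KO liver against WT liver (q = 6.47e-11) in the authors' deposited table. The values are alike in size, but they belong to different cytosines, and each was listed in 1 table alone. Both lie inside Gm22809, an annotated pseudogene of 156 bp (128061705 to 128061860), about which the gene table says nothing more.

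Cd79b encodes the beta chain of the signalling pair of the B cell receptor. At 3.22 kb it is the shortest of the 8 genes, and it had the only higher site. Position 106313816 on chromosome 11, inside the gene, stood at 21.8 percentage points in SAMe-treated against placebo-treated KO liver (q = 0.0082) in the authors' deposited table. The site was listed in neither WT table, so where WT liver stands at it is not known. Of the 230 sites listed between the KO groups, 119 had a larger difference and 161 were higher with SAMe.

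**Figure D2:**
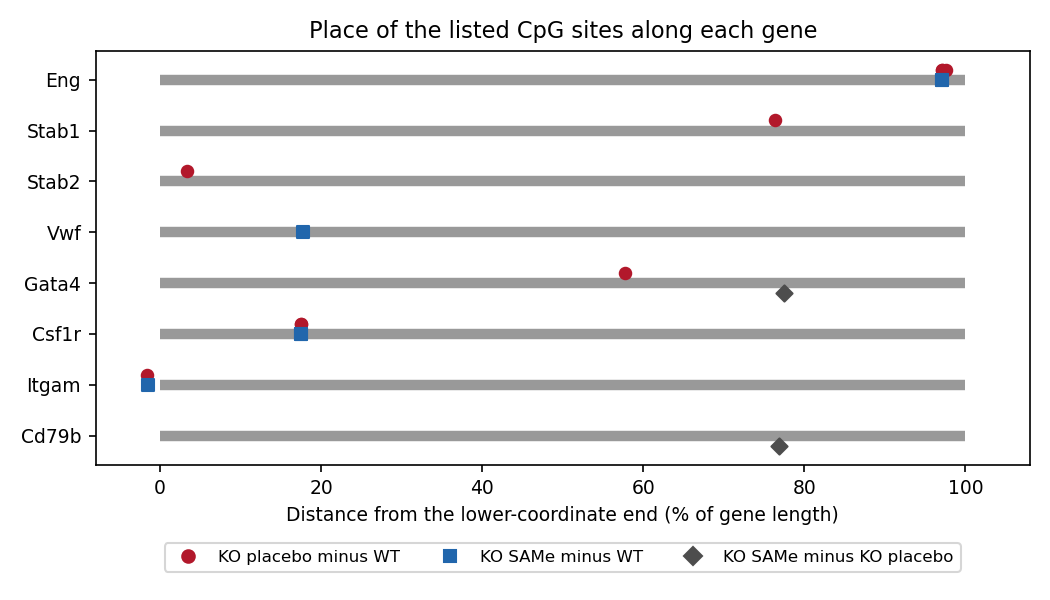
Each grey bar is 1 of the 8 genes, scaled to its own length, and the x axis gives the distance from the lower-coordinate end in percent of gene length. Symbols mark the listed sites by comparison; genes on the minus strand, such as Stab1 and Stab2, start at the right. Eng sites crowd near 97% of the length, and the Itgam sites lie outside the gene, left of 0.

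Of the sites described above, 2 in Eng and 2 in Csf1r were listed in both WT tables, which share the WT animals. The 3 tables are additive: where a site stands in all of them (26 sites), the values for placebo against WT and for SAMe against placebo add up to that for SAMe against WT, to within 1e-07 percentage points. By this addition, SAMe-treated minus placebo-treated KO liver came to 6.74 and 1.44 percentage points at the Csf1r sites and to 2.32 and −1.01 at the Eng sites. All 4 values are small beside the differences from WT, and none of these sites was listed between the KO groups. Over the 3707 sites of all genes listed in both WT tables, and so chosen by both thresholds, this quantity had a median of −0.46 and quartiles of −3.75 and 2.75. The value of 6.74 at Csf1r position 61110042 lay above the upper quartile, and the other 3 lay between the quartiles.

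**Figure D3:**
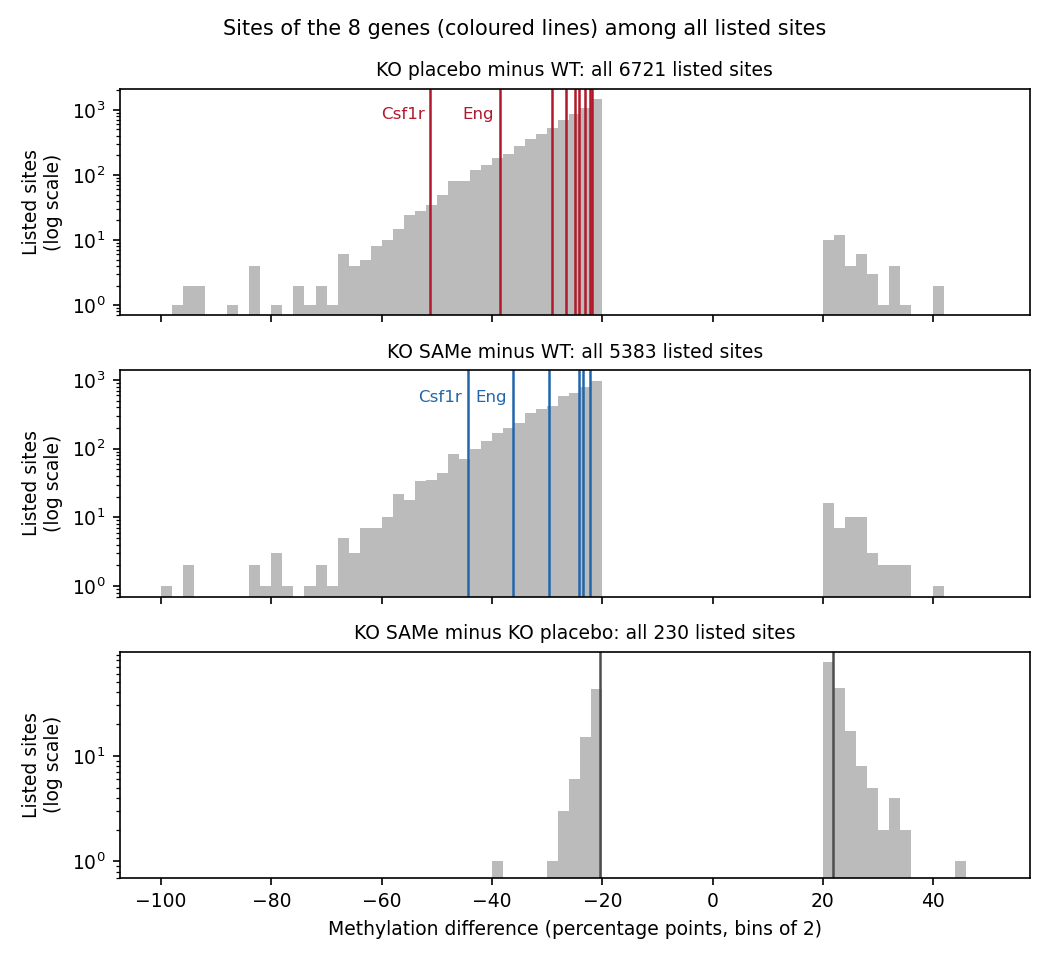
Each panel gives the number of listed sites (y axis, log scale) by methylation difference (x axis, percentage points, bins of 2) for 1 comparison, with coloured lines at the sites of the 8 genes. Lines crowd near −20 to −30 in both WT panels, while Csf1r (−51.2 and −44.4) and Eng (−38.6 and −36.3) reach into the tail.

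The 8 genes had a median length of 46.0 kb against 17.2 kb over all coding genes, Cd79b being shorter than most. Longer genes can hold more CpG sites that could be listed, but such sites were not counted per gene, so this was not tested. Wider gene lists, written with earlier results of these data known, were counted in the same way. Of 40 endothelial genes, the 8 genes' endothelial members included, 6 (15%) had a listed site in placebo-treated KO liver against WT liver, beside 12.5% of coding genes. The 6 were Eng, Stab1, Stab2, Gata4, Oit3 and Klf2, all with lower sites. Oit3, a marker of sinusoidal endothelium, stood at −32.6 percentage points (q listed as 0), and Klf2, a transcription factor that responds to blood flow, stood at −23.0 (q = 2.29e-06), in the authors' deposited table. In SAMe-treated KO liver against WT liver 3 of 40 (7.5%) had a site, Eng, Vwf and Oit3, beside 10.8%. Oit3 stood at −20.9 there (q = 2.84e-06) in the authors' deposited table. Pecam1, Cdh5, Kdr and Tek, which mark endothelium generally, and Lyve1, which marks lymphatic and liver sinusoidal endothelium, had no listed site in any table. Of the listed endothelial genes, 2 with placebo and 1 with SAMe were not among the 8 genes, which were chosen from these data. Nothing about endothelial genes is therefore read from the shares of 15% and 7.5%.

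The endoglin and BMP receptor pathway list had 4 of 18 genes (22.2%) with a listed site in placebo-treated KO against WT liver, 4 of 18 in SAMe-treated KO against WT liver and 0 of 18 between the KO groups. Over all coding genes these shares were 12.5%, 10.8% and 0.658%, and with 18 genes nothing particular to the list is read from the counts. Beside Eng these were the activin receptor gene Acvr2b, the receptor-activated signal transducer gene Smad9 and the inhibitory Smad6. Smad6 had 9 listed sites in each WT table, with means of −35.3 percentage points with placebo and −35.3 with SAMe against WT in the authors' deposited table. The largest Smad9 difference was −49.1 with placebo and −36.6 with SAMe against WT, at chromosome 3 position 54770679, in the authors' deposited table. Acvr2b stood at −33.6 with placebo and −36.0 with SAMe against WT in the authors' deposited table. Acvrl1 and Gdf2, the type I receptor and a ligand that act with endoglin, had no listed site. All listed sites of the pathway were lower in KO liver, and the list is not specific to endothelium, since hepatocytes carry BMP receptors and Smads as well.

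Of 34 macrophage and myeloid genes, 5 (14.7%) had a listed site in placebo-treated KO liver against WT liver and 3 (8.82%) in SAMe-treated KO liver against WT liver. These shares stand beside 12.5% and 10.8% of coding genes. They include Csf1r and Itgam, which were chosen from these data. Apart from these, 3 genes had a site with placebo and 1 with SAMe. Nothing about myeloid genes is therefore read from the shares. Besides Csf1r and Itgam, the placebo table listed Il34, which encodes a Csf1r ligand, at −21.1 percentage points (q = 3.79e-13), in the authors' deposited table. Fcgr1, an Fc receptor for IgG, stood at −21.8 (q = 3.33e-08) and Csf3r, the receptor for granulocyte colony-stimulating factor, at −24.0 (q = 2.04e-10) in the authors' deposited table. Il34 was also listed with SAMe, at another position, at −24.9 against WT (q = 2.08e-05) in the authors' deposited table. Csf1, the other Csf1r ligand, and the Kupffer cell genes Clec4f, Adgre1, Timd4 and Vsig4 had no listed site. No gene of this list was listed between the KO groups.

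Of 32 lymphocyte genes, 4 (12.5%) had a listed site with placebo and 3 (9.38%) with SAMe, each against WT, beside 12.5% and 10.8% of coding genes. Blnk, an adaptor downstream of the B cell receptor, stood at −32.0 with placebo and −39.4 with SAMe at the same position in the authors' deposited table. Cd247, the zeta chain of the T cell receptor complex, stood at −21.3 with placebo and −26.9 with SAMe against WT in the authors' deposited table. The B cell transcription factor Pax5 (−27.5) and the B cell inhibitory receptor Cd22 (−24.1) were listed with placebo alone, and the transcription factor Ebf1 (−21.6) with SAMe alone, in the authors' deposited table. All of these were lower in KO liver. Between the KO groups, Cd79b was the only one of the 32 with a site (3.13%, beside 0.658%). Cd79b was itself chosen from these data, so nothing about lymphocyte genes is read from this share. Cd79a, the partner chain of Cd79b, had no listed site in any table.

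**Figure D4:**
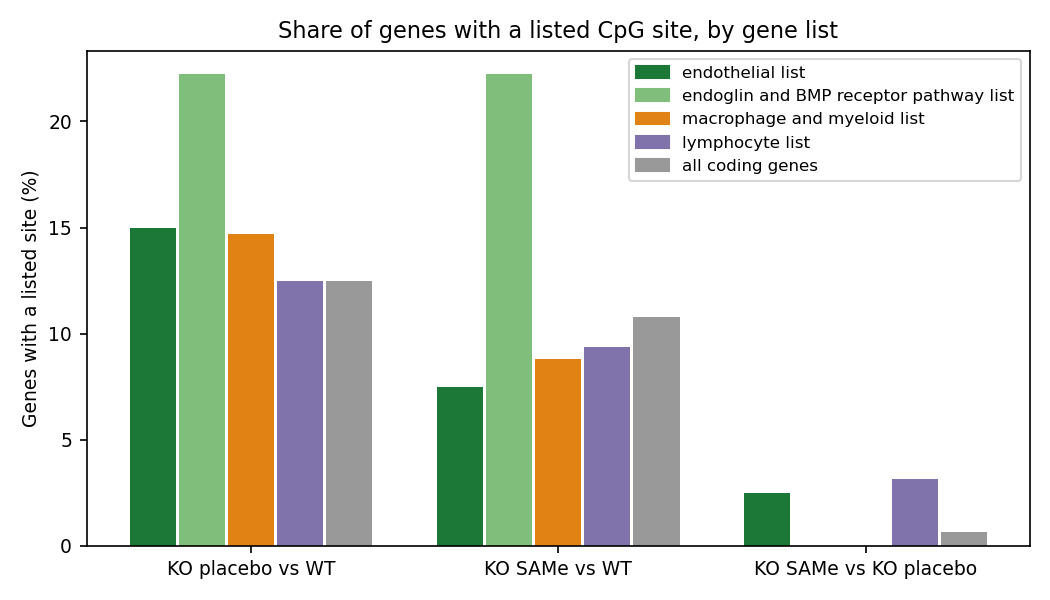
Bars give the percent of genes with a listed CpG site (y axis, from 0) in each of the 4 gene lists and, in grey, in all coding genes, for the 3 comparisons. The endothelial, myeloid and lymphocyte bars stand at 15%, 14.7% and 12.5% beside 12.5% with placebo against WT. With SAMe against WT they stand at 7.5%, 8.82% and 9.38% beside 10.8%. The pathway bar stands at 22.2% in both. Between the KO groups, Gata4 and Cd79b alone give the endothelial (2.5%) and lymphocyte (3.13%) bars, beside 0.658%. The lists include the 8 genes, which were chosen from these data, so the bars carry no comparison with the grey bar.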

How the data were processed

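Livers of 19 mice were profiled by reduced-representation bisulfite sequencing, per the labels' protocols. Per the submitters' processing notes, the tools were CASAVA 1.8.2, Trim Galore, Bismark and methylKit, and the build was mm10; roles and settings are not stated there. The authors deposited 3 tables of their own comparisons, with a p-value, a q-value and a methylation difference in percentage points per CpG site; the kind of test, the coverage filter and the depth per sample are not given in the sources used here.

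Sites were assigned with Python 3.11.15 and pandas 2.3.3 to 21887 coding genes (RefSeq, GRCm38.p6), with 2 kb added at both ends of a gene. Exon positions were not available, so exons, introns and UTRs were not distinguished. The assignment was tested on simulated data, in which 200 of 200 planted sites were placed correctly. No test was computed, since values for single animals were not available. The named genes were the 8 genes, up to 8 genes of each list per table with the largest difference, and genes sharing a site with the 8. The genes and lists were chosen with earlier results of these data known. Alternatives were other flanks, a difference of at least 25 and q under 0.01.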

Additional observations from a re-analysis of the deposited data

Results flagged for a closer look

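At 2 sites of the 8 genes the deposited comparison between the KO groups passed the thresholds. The difference of SAMe-treated minus placebo-treated KO liver was −20.5 percentage points in Gata4 (q = 0.0453) and 21.8 in Cd79b (q = 0.0082) in the authors' deposited table. Neither site was listed in a WT comparison, and no WT mice received SAMe or placebo. Whether SAMe acts differently in KO and WT liver at these sites was not tested.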

How the results depend on the processing

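Of 99 recomputed counts and values, 81 stayed within 1.5 times the value given above or kept their direction, 18 moved further and 0 reversed. Counting only differences of at least 25 percentage points left 4 sites of the 8 genes, 3 endothelial, 2 myeloid and 2 lymphocyte genes with placebo against WT (7.84% of coding genes). With SAMe against WT it left 3 sites and 1 endothelial gene (7.14% of coding genes). Between the KO groups it left 0 sites, 0 of the 8 genes, and 0 endothelial and 0 lymphocyte genes (0.0777% of coding genes). Counting only q under 0.01 between the KO groups left 1 site in 1 of the 8 genes, Cd79b, and 0 endothelial genes (0.539% of coding genes). With a flank of 10 kb the myeloid list had 9 genes with placebo and 7 with SAMe, each against WT (17.7% and 15.1% of coding genes). Fewer or more sites enter by construction in each case. Leaving out the Eng sites shared with Fpgs, an alternative chosen after seeing the data, left 6 sites in 5 genes with placebo and 4 sites in 3 genes with SAMe. No paired analysis was possible because the tables hold no values for single animals; for the same reason no animal could be left out. Depth is unknown and sets what could be listed.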

Other observations

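Fpgs, the neighbour of Eng, encodes the enzyme that adds glutamates to folate and keeps it in the cell. It had 2 listed sites of its own inside the gene, at chromosome 2 positions 32694852 and 32694872. They stood at −35.5 and −25.3 percentage points in placebo-treated KO liver against WT liver in the authors' deposited table. In SAMe-treated KO liver against WT liver they stood at −27.6 and −25.3 in the authors' deposited table. Lower methylation was thus listed on both sides of the overlap of Eng and Fpgs in both KO groups.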
